A study of Drosophila melanogaster with 3 samples.

Results

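The regions described are the intronic peaks of CG10431 that lie far from any transcript start. They are the entries of the authors' list of reproducible peaks whose summit, the single base of highest signal in a peak, was over 5000 bp from the nearest annotated transcript start, inside a gene and in no annotated exon. Of the 3314 reproducible peaks, 282 met this rule (8.51%, exact binomial 95% interval 7.58 to 9.51). Reproducible here means that the peak passed the irreproducible discovery rate (IDR) procedure, which compares the ranks of peaks between replicates. The list that passed is also the 3314 pooled entries of highest signal, so it does not show that each peak was found in every replicate. The level for comparison came from the authors' list of 30000 pooled candidates, peaks and background together, in which 4688 entries outside the IDR list had the same kind of position.

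The data are chromatin immunoprecipitation followed by sequencing (ChIP-seq) on whole Drosophila melanogaster embryos of 0 to 12 h, male and female pooled. All embryos came from a single transgenic line that stably expresses CG10431 with GFP at its C terminus, and the 3 biological replicates form 1 group with no second condition. The free text of the labels calls them input controls, but their assay, their antibody and the origin of their peak lists, each called against 1 shared control, are those of ChIP samples, and they were read as such. No read depth is known for any list, and a site bound weakly in many cells cannot be told apart from one bound strongly in few cells of the embryo.

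Most fly introns are short, and the long ones, often the first of a gene, belong to a limited set of developmental regulators, adhesion molecules and signalling genes, where they are known to hold enhancers. A transcription factor recognises a short DNA sequence, so a sequence that recurs under the summits of its peaks, more often than beside them, is the usual way to describe a set of such regions. The peaks in long introns were therefore described by the genes that hold them, by their rank in each replicate and by the short sequences at their summits.

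The 7-mer with the smallest p at these summits against their flanks was TACATGG. It is shown in capitals below, with 22 bases on either side, for 11 of the strongest regions that hold it, so that its surroundings can be compared. Each line gives the host gene and the position on dm6 (read from RefSeq's copy of the assembly, 1-based).

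Cad86C (chr3R:10837063-10837113, plus strand): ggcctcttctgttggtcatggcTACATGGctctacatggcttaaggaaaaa
br (chrX:1593513-1593563, minus strand): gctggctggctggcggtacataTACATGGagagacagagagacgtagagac
CG46458 (chr3R:6952881-6952931, plus strand): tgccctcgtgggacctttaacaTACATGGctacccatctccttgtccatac
Wdr62 (chr2L:1903074-1903124, minus strand): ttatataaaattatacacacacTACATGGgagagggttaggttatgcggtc
dlg1 (chrX:11404404-11404454, minus strand): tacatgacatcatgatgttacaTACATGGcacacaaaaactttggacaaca
N (chrX:3162474-3162524, minus strand): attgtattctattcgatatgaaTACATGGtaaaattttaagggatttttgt
tai (chr2L:9190396-9190446, minus strand): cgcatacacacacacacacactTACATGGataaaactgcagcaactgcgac
pb (chr3R:6726237-6726287, plus strand): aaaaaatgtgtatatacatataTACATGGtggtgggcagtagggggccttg
nkd (chr3L:19015003-19015053, minus strand): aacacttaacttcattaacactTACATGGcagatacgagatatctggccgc
MESR3 (chr2L:18627088-18627138, plus strand): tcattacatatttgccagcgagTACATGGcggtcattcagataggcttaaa
gpp (chr3R:6426475-6426525, plus strand): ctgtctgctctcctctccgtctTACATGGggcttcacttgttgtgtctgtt

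In Cad86C a second copy, left in lower case, follows just after the first, and the regions of br, CG46458, dlg1, N and pb carry an A before the 7-mer, which makes the overlapping 7-mer ATACATG. Over all 35 regions with the 7-mer, the base before it was A in 15, T in 11, C in 5 and G in 4. The base after it was C in 13, G in 8, T in 8 and A in 6.

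Strong summits without TACATGG are shown by windows of 100 bp on either side of the summit in 3 of the strongest regions. Capitals mark 3 further 7-mers that were more frequent at the summits than in the flanks (AAATATG and ATACATG as well as ATATTTG, or their reverse complements). The Hr4 window holds none of them.

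Hr4 (chrX:1947628-1947828, plus strand): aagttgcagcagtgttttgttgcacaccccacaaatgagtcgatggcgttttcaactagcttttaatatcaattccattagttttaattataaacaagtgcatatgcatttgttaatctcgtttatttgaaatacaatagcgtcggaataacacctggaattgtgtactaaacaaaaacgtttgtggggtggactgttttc
Gug (chr3L:8458245-8458445, plus strand): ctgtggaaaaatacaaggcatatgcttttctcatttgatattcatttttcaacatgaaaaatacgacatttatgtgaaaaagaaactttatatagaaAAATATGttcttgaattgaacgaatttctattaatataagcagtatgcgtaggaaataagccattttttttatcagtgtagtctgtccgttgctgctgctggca
tara (chr3R:16236039-16236239, plus strand): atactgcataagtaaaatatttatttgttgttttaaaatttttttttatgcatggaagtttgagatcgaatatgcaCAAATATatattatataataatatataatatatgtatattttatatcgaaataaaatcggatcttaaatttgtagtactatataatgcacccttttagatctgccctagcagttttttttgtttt

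The strongest of the far intronic peaks lay in sbb, which encodes a transcriptional corepressor (scribbler, also called brakeless). It had a signal of 2022 in the pooled list, a value of the authors' peak caller of unstated scale, and ranked 32 there (2R, 18336877 to 18337386). The same site ranked 25, 36 and 37 in replicates 1, 2 and 3, with signals of 618.0, 834.3 and 587.5. It was in the second intron of the gene, 20123 bp from the nearest start. Next came CG46321 (2R, 10219929 to 10220245), at ranks of 68, 87 and 124 in the replicates, where the nearest start belonged to the nuclear receptor gene Hr3, 7882 bp away. The third was in the first intron of Cad86C, a cadherin gene (3R, 10836887 to 10837283), at ranks of 122, 80 and 118.

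The next 2 were in genes of the ecdysone hormone response. The peak in br (X, 1593377 to 1593727), which encodes the Broad zinc finger factors, ranked 181, 92 and 91 in replicates 1, 2 and 3. The peak in Hr4, a nuclear receptor gene (X, 1947599 to 1947886), ranked 105, 122 and 92. The remaining 15 of the 20 strongest were in CG46458, S (Star, a cargo receptor for an epidermal growth factor receptor ligand), simj (a NuRD complex subunit), Gug (the corepressor Atrophin), Wdr62 (a spindle and centrosome protein), tara, dlg1 (a junction scaffold), tara again, jumu (a forkhead factor), gukh (a Dlg-binding protein), crp (a bHLH factor), sdk (an adhesion protein), simj and sbb again, and fra (a Netrin receptor). All 20 were among the 300 strongest IDR peaks, with pooled ranks of 32 to 297. Their ranks ran between 25 and 485 in replicate 1, 36 and 364 in replicate 2, and 37 and 310 in replicate 3, so every one of the 20 was among the 3314 strongest entries of every replicate.

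**Figure D1:**
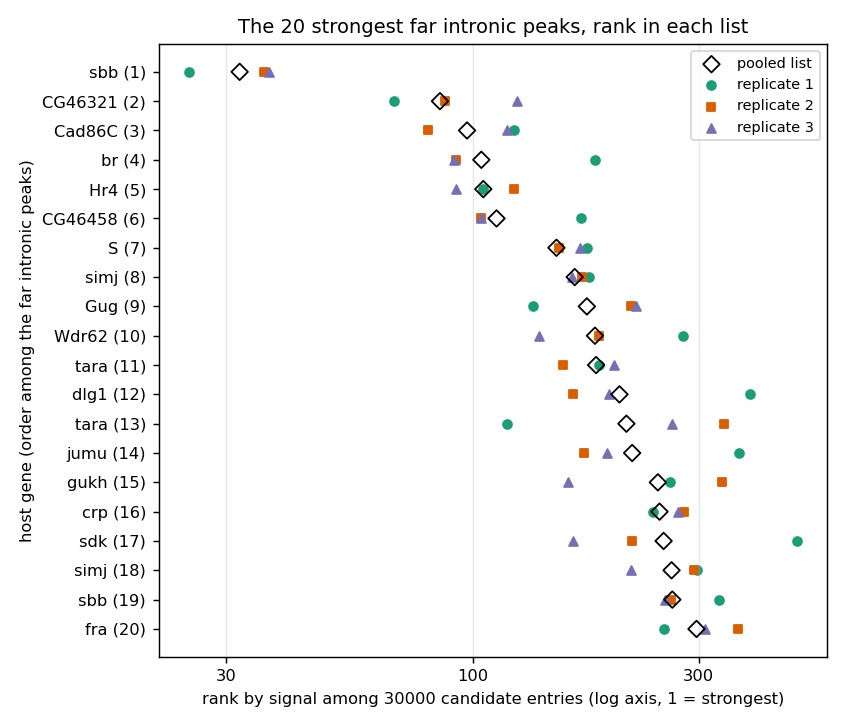
Rank by signal (log axis, 1 is the strongest of 30000 entries) of the 20 strongest far intronic peaks in the pooled list (open diamonds) and in replicates 1, 2 and 3 (filled symbols), by host gene. The sbb peak stands apart at ranks of 25 to 37, and the widest spread is at sdk, which ranked 485, 217 and 163 in replicates 1, 2 and 3.

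Over all 282 regions the signal had a median of 262.2 and ran between 186.9 and 2022, against a median of 282.0 in the other 3032 IDR peaks. The regions were 3 of the 100 strongest IDR peaks and 75 of the 1000 strongest, and made up 8.51% of all IDR peaks. A region was counted as found in a replicate where 1 of its 3314 strongest entries had a summit within 250 bp. By that count 163 regions (57.8%, 95% interval 51.8 to 63.6) were found in all 3 replicates, against 61.5% (59.8 to 63.3) of the other IDR peaks. A further 80 were found in 2 replicates, 35 in 1 and 4 in 0. Replicate 3 held fewest of them, 70.6%, against 86.5% in replicate 1 and 85.5% in replicate 2. The other IDR peaks were at 81.8%, 86.3% and 80.3% in replicates 1, 2 and 3. The 4 found in no replicate by that count were in Cdep, Ptp10D, grn and nyo, all near the end of the IDR list, at pooled ranks of 3142 to 3242 (named after their values were seen). Each of them had a weaker entry within 250 bp in all 3 replicates, with best ranks of 3328, 3407, 3383 and 3515 in that order. With entries of any rank, 282, 281 and 281 regions had one within 250 bp in replicates 1, 2 and 3. The pooled calls use the same reads as the replicates, so recurrence is no independent test.

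Far intronic positions were less common among strong entries than among weak ones. They made up 8.51% of the IDR peaks, against 17.6% (95% interval 17.1 to 18.03) of the pooled candidates outside the IDR list. Of all pooled candidates 11.0% passed IDR, of the 4970 far intronic ones 5.67% (5.05 to 6.35) and of the other candidates 12.1%. Passing IDR is part of how the regions were chosen, and these shares are given as a description. Within each replicate, the 3314 strongest entries held 294, 279 and 243 far intronic summits in replicates 1, 2 and 3. Their share averaged 8.21% ± 0.791 among the strongest entries, against 16.8% ± 0.356 among the other entries (SD, n = 3), with no overlap between the 3 and 3 values (exact permutation test, two-sided, p = 0.1, the smallest p that 3 values against 3 allow). Paired by replicate, the strongest entries had the lower share in 3 of 3 pairs (exact sign-flip permutation test, p = 0.25, the smallest that 3 pairs allow). The pooled list uses the same reads, and the strongest and other entries are parts of the same lists. The replicate values are therefore a description as well, and no independent test.

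The 282 regions were in 183 host genes. Of these genes, 124 held 1 region, 35 held 2, and 24 held 3 or more, which together took 88 of the regions. The most, 7 each, were in Hr4 and in tara, a trithorax group gene that also acts in the cell cycle. In Hr4 they spread over 36996 bp and 4 introns, with signals of 209.6 to 1069, and stood at 5 separate places, with 2 pairs of summits within 500 bp. Of the 7, 5 were found in all replicates, and 2 of those 5, at pooled ranks of 105 and 2716, were matched by the same replicate entries. In tara all 7 were in first introns, with signals of 214.2 to 843.4, and 4 were found in all replicates. The homeodomain gene hth, a partner of Hox factors, held 5 over 77095 bp, of which 1 was found in all replicates. In sbb, 4 summits stood within 5213 bp of one intron, at pooled ranks of 32, 264, 394 and 1228, and all 4 were found in every replicate. In simj, 4 summits stood within 4488 bp, at ranks of 164, 263, 306 and 434.

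Some of these neighbours are not separate observations. In simj the 4 summits form 2 close pairs, and each pair was matched by the same replicate entry. Over the whole set there were 8 such pairs with summits within 500 bp of each other, in simj and Hr4 (2 each), tai, shot, SKIP and Mnt, which leaves 274 separate places, and 2 pairs of summits were within 200 bp, so that their windows share sequence. The other hosts with 4 regions were gukh, CG45088, CG42238 and NetA, which encodes a Netrin guidance cue. Those with 3 were crp, Eip75B, tai, dlp (a glypican), Raf (a MAP kinase kinase kinase), EcR, Tet (a DNA and RNA dioxygenase of the TET family), SKIP, Fas3 (an adhesion molecule), dar1 (a Krüppel-like factor), Eip74EF, nmo (the kinase Nemo), jing (a zinc finger factor), pum (the translational repressor Pumilio) and Prosap (a postsynaptic scaffold).

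A host gene's number of regions has to be read beside its number of candidates. Of the far intronic candidates in tara, 58.3% passed IDR (7 of 12), and in Hr4 36.8% did (7 against 12 that did not). In hth it was 5.75%, since 82 further candidates in that gene were outside the IDR list, about the level of 5.67% for all far intronic candidates. Of the 183 host genes, 175 also held a candidate outside the IDR list.

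**Figure D2:**
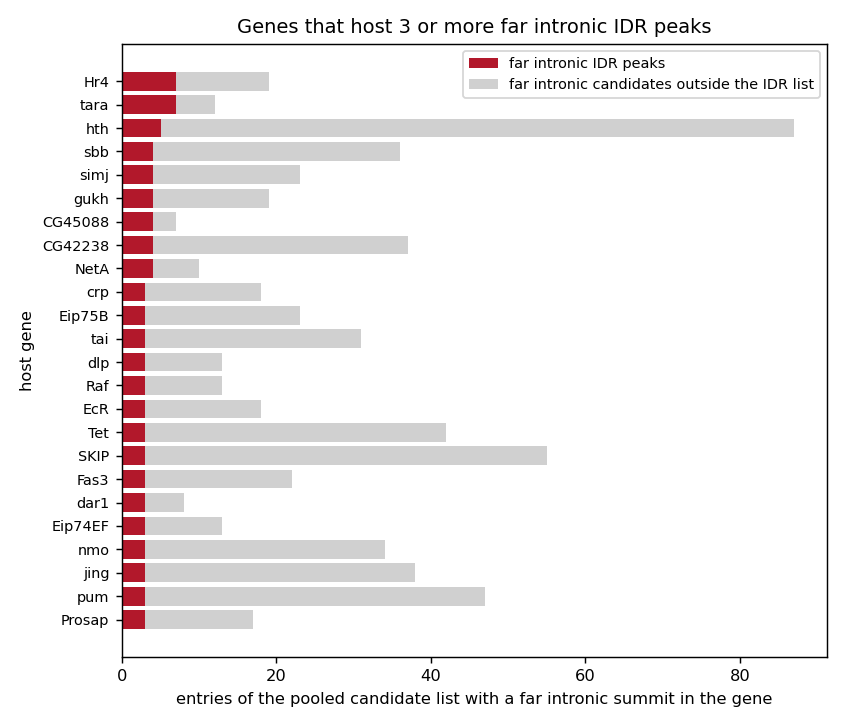
Number of far intronic IDR peaks (red) and of far intronic candidates outside the IDR list (grey, stacked to the right) in each of the 24 genes with 3 or more such peaks. In tara 7 of 12 entries were IDR peaks, whereas hth had 5 beside 82 other candidates.

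The host genes were also grouped by 8 lists of known function, and the regions were counted beside the candidates, since long introns belong to few kinds of gene. Genes of the nuclear receptors and the ecdysone response held 22 of the 282 regions (7.80%, 95% interval 4.95 to 11.6), against 3.01% (2.54 to 3.54) of the 4688 candidates. In this response the steroid hormone binds the EcR receptor and its partner, which switch on early regulators such as br, Eip74EF and Eip75B, and these in turn act on later genes. The 22 regions were in 8 of the 14 list genes that hold any candidate: 7 in Hr4, 3 each in the nuclear receptor genes EcR and Eip75B, in the ETS factor gene Eip74EF and in the EcR coactivator gene tai, and 1 each in br, ftz-f1 (another nuclear receptor) and ImpE1. The strongest after br were both in Hr4, at pooled ranks of 105 and 346. Without the 7 in Hr4, the share was 5.45% (3.08 to 8.84) of the regions, against 2.76% (2.31 to 3.27) of the candidates, and these intervals overlap. Counted once per place, the list held 19 of 274 (6.93%).

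In the replicates this list held 7.48%, 8.96% and 7.41% of the far intronic summits among the strongest entries of replicates 1, 2 and 3, against 3.13%, 2.88% and 2.83% among their other entries. The means were 7.95% ± 0.876 and 2.95% ± 0.162 (SD, n = 3), and the values did not overlap (exact permutation test, two-sided, p = 0.1, or p = 0.25 paired by replicate, each the smallest possible). The same held for 6 of the 8 lists, with 2 higher (this one and the signalling pathways) and 4 lower in the strongest entries. The replicate shares include Hr4. Of the regions, 70.6% to 86.5% were found in each replicate, so many of the same regions were counted in each. The 3 values of a list are therefore no independent repeats. The replicates share the line and the annotation, and the list's genes were chosen with earlier results of these data known.

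Genes of the signalling pathways held 32 regions (11.3%, 7.89 to 15.6), against 7.999% (7.24 to 8.81) of the candidates, and the intervals overlap. Over the replicates it was 11.9% ± 1.04 of the strongest entries and 7.56% ± 0.252 of the others (SD, n = 3). The strongest were in S at a pooled rank of 150, in fz, the Frizzled receptor gene, at 410 and in N, the Notch receptor gene, at 549. Genes of secreted signals held single regions, among them vn, dpp, pyr, bnl and Wnt6, and Pvf3 held 2 (named after their values were seen). Of these, vn ranked highest, at 712.

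The list of developmental transcription factors and cofactors held 26 regions (9.22%, 6.11 to 13.2), against 13.6% (12.6 to 14.6) of the candidates, and the intervals overlap, with the strongest in Gug at 174, mam, which encodes a Notch coactivator, at 355 and bab2 at 423. In the replicates it was 7.88% ± 1.495 of the strongest entries and 13.4% ± 1.05 of the others (SD, n = 3). The list also names pyd, a junction scaffold gene, and how, an RNA-binding protein gene, with 1 region each, and without these 2 genes the shares were 8.51% of the regions (5.53 to 12.4) and 12.7% of the candidates (11.7 to 13.7). It leaves out sbb, crp, dar1 and jumu, which encode corepressors or DNA-binding factors and held 11 regions. With these 4 added and pyd and how left out, the shares were 12.4% and 13.8%, though the 4 were picked because they hold regions. The lists overlap, so that the regions in how and pnt are each counted in 2 lists. RNA-binding and splicing regulators held 7 regions (2.48%) against 5.65% of the candidates, the strongest in spen at 1363, sm at 1418 and brat at 1429. Axon guidance and adhesion genes held 18 (6.38%) against 8.51%, led by fra at 297, babos at 442 and Fas3 at 973. Cytoskeleton and muscle genes held 6 (2.13%) against 2.24%, with shot at 432, nuf at 1310 and Abl at 1861. Ion channel and synaptic genes held 3 (1.06%) against 1.32%, in dlg1, Shal and Syn, at ranks of 204, 1777 and 2686. The list of chromatin regulators held 1 (0.355%) against 0.576%, the forkhead gene jumu at 217, but it does not name simj, tara, gpp (a histone methyltransferase gene) or JIL-1 (a histone kinase gene), which held 4, 7, 2 and 1 regions, so its count covers the listed genes and not chromatin regulators at large.

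**Figure D3:**
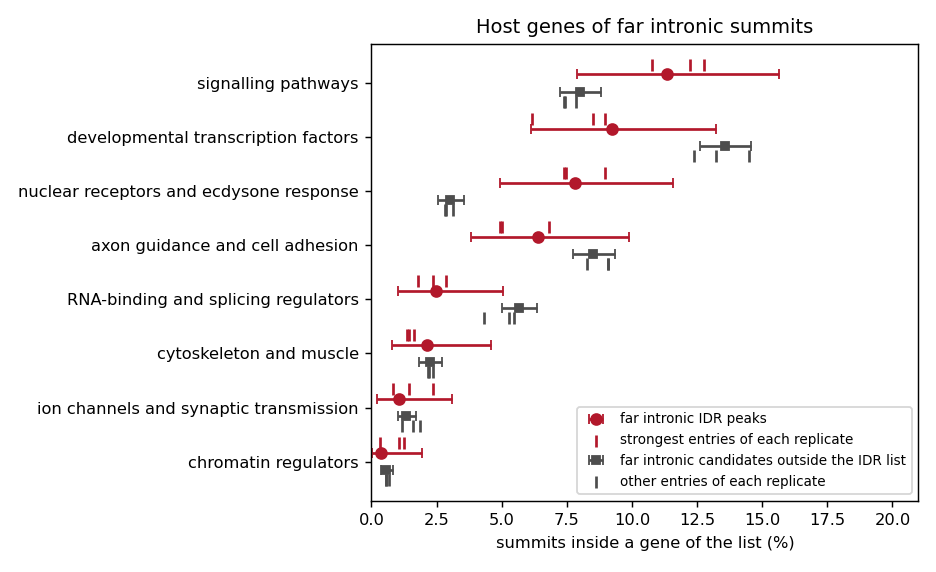
Share of far intronic IDR peaks (red circles) and of far intronic candidates outside the IDR list (grey squares) whose summit is in a gene of each list, with exact 95% binomial intervals. Short vertical marks give the same shares in the strongest and the other entries of each replicate. The nuclear receptor and ecdysone list is the one whose intervals lie fully apart with the higher share in the IDR peaks, at 7.80% against 3.01%; without Hr4 they overlap, at 5.45% against 2.76%.

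Within the host genes, 121 of the 282 summits (42.9%, 37.1 to 48.9) were in the first intron of the longest transcript over them, against 29.99% (28.7 to 31.3) of the candidates. The introns were long in both sets, with a median of 14787 bp in the regions and 17189 bp in the candidates. The median distance to the nearest transcript start was 8225 bp in the regions, with a range of 5021 to 47313, and 9747 bp in the candidates. That nearest start belonged to the host gene itself for 177 regions (62.8%). Of the 183 host genes, 75 (41.0%, 33.8 to 48.5) also had an IDR summit within 500 bp of one of their own starts. Among the 608 genes that host candidates alone, 150 did (24.7%, 21.3 to 28.3). Nearly all regions, 98.6%, were in protein-coding genes, as were 97.5% of the candidates.

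The sequence at the summits was compared over all 8192 7-mers, with reverse complements joined, and 19 motifs with other consensus lengths or letters, 8211 features in all, in windows of 100 bp on either side of the summit, on both strands. Against windows of the same width centred 500 bp to the right of each summit, 4 features (0.0487% of those tested) were more frequent and 0 less frequent at an adjusted p under 0.05 (exact McNemar tests, two-sided, Benjamini-Hochberg). At an unadjusted p under 0.05 it was 135 more frequent and 116 less frequent, of 8211 tested. TACATGG was in 35 summit windows (12.4%, 8.80 to 16.8) and in 4 flanking windows (1.42%, 0.388 to 3.59, exact adjusted p = 0.00127). ATACATG, which overlaps it by 6 bases, was in 10.3% of summit and 0.709% of flanking windows (exact adjusted p = 0.00127), and 16 regions held both. AAATATG was in 15.96% against 3.19% (exact adjusted p = 0.00127) and ATATTTG in 18.1% against 6.03% (adjusted p = 0.0358), with 15 regions holding both. In all, 121 regions held at least 1 of the 4.

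The peaks, not the embryo collections, are the units of these tests. TACATGG also led in earlier results over all IDR peaks, which include these regions, so its excess here is no independent support. The flanks differ between sets: AAATATG was in 3.19% of the flanks of the regions, but in 9.09% of the flanks of the candidates and 6.37% of those of the other IDR peaks. For TACATGG the flanks were alike, at 1.42%, 1.34% and 1.62% in that order. Of the 4 calls against flanks, AAATATG and ATATTTG were both lost without each replicate in turn, with the control 500 bp to the left or 1000 bp to the right, and in windows of 200 bp on either side, while ATACATG was lost with the control 1000 bp to the right and in the wider windows. Without a replicate, only regions found in both other replicates were kept, with their pooled summits, which also left fewer windows. These were 179, 178 and 212 regions without replicates 1, 2 and 3. There AAATATG was in 13.97%, 14.04% and 14.15% of summit windows, against 2.79%, 2.25% and 2.83% of flanks. ATATTTG was in 14.5%, 16.3% and 17.0%, against 6.70%, 7.30% and 7.08%. AAATATG was also lost in windows of 50 bp on either side (exact adjusted p = 0.0563) and with a limit of 2500 bp. In the control 1000 bp to the right, AAATATG was in 12.1% of windows, against 15.96% at the summits. The call for TACATGG was lost with fewer windows: in the 106 regions over 10000 bp from a start it was in 17.9% against 0.943% (exact McNemar, adjusted p = 0.329), and in the 125 regions among the 1657 strongest IDR peaks in 14.4% against 0.8% (adjusted p = 0.313). With the other alternatives its adjusted p ran between 6.30e-06 and 0.0346.

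Set against the 4688 far intronic candidates outside the IDR list, 8 features (0.0974% of those tested) passed, 7 more frequent in the regions and 1 less (exact Fisher tests, two-sided, Benjamini-Hochberg). At an unadjusted p under 0.05 it was 482 of the 8211 tested, a count not corrected for the number of tests. TACATGG was in 12.4% of the regions and 2.39% (1.97 to 2.87) of the candidates (exact adjusted p = 7.53e-10). ATACATG was in 10.3% against 3.05% (exact adjusted p = 0.000302), CATGTAA in 8.87% against 2.99% (adjusted p = 0.00815), and TACATGA in 6.74% against 2.15% (adjusted p = 0.0373). All share the bases ACATG or CATGT with TACATGG or its reverse complement. The others were ATATTTG, 18.1% against 9.02%, ACAAACA, 17.0% against 8.62%, and ACAAATA, 17.7% against 9.26%, with adjusted p of 0.00815, 0.0200 and 0.0207. AAATATG, at 15.96% against 8.92%, did not pass (exact adjusted p = 0.112). Of the 8 calls, those for TACATGG and ATACATG held under all 9 alternatives run for them. Without replicate 2, those 2 and the run of A or T described next were the only ones of the 8 still called, without replicate 3 they and ACAAATA, and without replicate 1 the calls lost were ATATTTG and ACAAATA. Over 10000 bp from a start and among the 1657 strongest IDR peaks, TACATGG and ATACATG alone held.

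The less frequent feature was a run of 8 A or 8 T, in 15.2% of the regions and 28.9% of the candidates (exact adjusted p = 0.000686). The regions had the same share at the summit as in their flanks, 15.2% in each, whereas the candidates had 28.9% at the summit and 14.95% in their flanks. The other IDR peaks had 15.3% at the summit, much as in the regions, and 9.96% in their flanks. In the replicates, TACATGG was in 10.5%, 12.5% and 14.4% of the far intronic windows among the strongest entries of replicates 1, 2 and 3, and in 2.41%, 2.31% and 2.29% of those among the other entries. The values did not overlap between them (12.5% ± 1.93 and 2.34% ± 0.0659, SD, n = 3, exact permutation test, two-sided, p = 0.1, or p = 0.25 paired by replicate, each the smallest possible). Of the regions, 70.6% to 86.5% were found in each replicate, so many of the same sequences were counted in each. The 3 values are therefore no independent repeats.

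Against the other 3032 IDR peaks, 438 of the 8211 features had an unadjusted p under 0.05, a count not corrected for the number of tests. After adjustment 1 feature (0.0122% of those tested) passed, CCCCTCC, in 6.03% of the regions and 1.35% of the other IDR peaks (exact Fisher test, adjusted p = 0.0261). This feature was also in 4.96% of the flanks of the regions. Its call was lost when 1 peak was kept per run, in windows of 50 bp on either side and among the 1657 strongest IDR peaks. It was also lost without each replicate in turn, where only peaks found in both other replicates were kept. That left 179, 178 and 212 regions without replicates 1, 2 and 3, so fewer windows were tested. TACATGG was in 12.4% of the regions and 7.29% (6.39 to 8.27) of the other IDR peaks, which did not pass (exact adjusted p = 0.492). By position, it was in 9.87% of the other intronic IDR peaks, 11.3% of the intergenic ones, 20.2% of the exonic ones over 500 bp from a start and 4.61% of the 1801 peaks within 500 bp of a start.

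Core promoter motifs were searched as well. The DRE, a core promoter element (ATCGAT with A or T on either side), was in 1.77% of them and in 6.43% of the other IDR peaks (exact adjusted p = 0.284), Ohler motif 7 in 1.06% against 5.71% (adjusted p = 0.220), and Motif 1 in 0 of 282 against 1.65% (adjusted p = 0.778). Ohler motif 5 was in 5.32% against 9.004% (adjusted p = 0.907), Ohler motif 6 in 0.355% against 0.792%, the Initiator in 15.96% against 16.7% and the TATA box in 5.32% against 3.99% (exact adjusted p = 1 for these 3). None of these differences passed. The core motif of the insulator protein CTCF (AGRKGGC, where R is A or G and K is G or T) was in 11.7% (8.19 to 16.04) of the summit windows and 6.74% (4.10 to 10.3) of the flanks (exact adjusted p = 1), in 8.36% of the candidates and in 7.92% of the other IDR peaks. The motif of the insulator protein Su(Hw) was in 2.13% of the regions, that of the early embryonic factor Zelda (CAGGTAG) in 1.06% and that of GAGA factor (GAGAGAG) in 7.09%, with no call against any of the 3 sets.

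**Figure D4:**
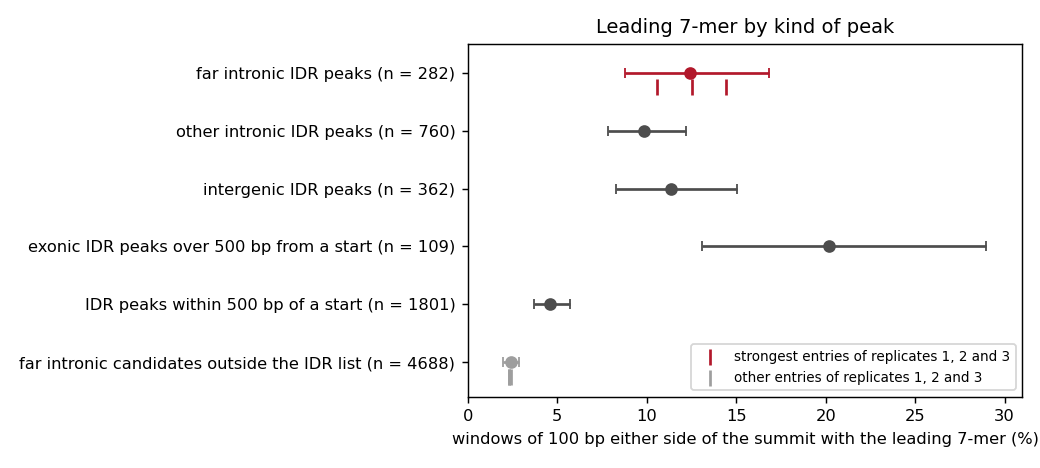
Share of summit windows (100 bp on either side) with TACATGG (the leading 7-mer) in far intronic IDR peaks (red), in the other IDR peaks by position (dark grey) and in far intronic candidates outside the IDR list (light grey), with exact 95% binomial intervals. Short marks give the 3 replicates. The share was 12.4% in the far intronic IDR peaks and 2.39% in the candidates.

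Among the 282 regions, the share with TACATGG did not fall in order with signal. It was in 6 of the 20 strongest (30%, 11.9 to 54.3), in Cad86C, br, CG46458, Wdr62, dlg1 and sdk. In 4 groups of 70 or 71 regions by signal, high to low, it was in 12.7%, 18.3%, 10% and 8.57%, with intervals that overlap. It was in 15.3% (10.2 to 21.8) of the regions found in all replicates and in 8.40% (4.10 to 14.9) of the rest. In the candidates it was in 3.50%, 3.07%, 1.28% and 1.71% of 4 equal groups by signal, high to low.

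The 7-mer was close to the summit. The median distance of its centre from the summit was 23 bp in the 35 regions, and 25 of them (71.4%) had it within 30 bp and 30 within 50 bp, with the farthest at 69 bp. In the 112 candidates with the 7-mer, the median was 30.5 bp, 50% had it within 30 bp, and the farthest was at 97 bp. In Cad86C, shown above, the centre was 1 bp from the summit, in MESR3 5 bp and in nkd, a Wnt pathway regulator, 6 bp. In N it was 62 bp away. A second copy in the window was found in 2 regions, Cad86C and dlg1.

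**Figure D5:**
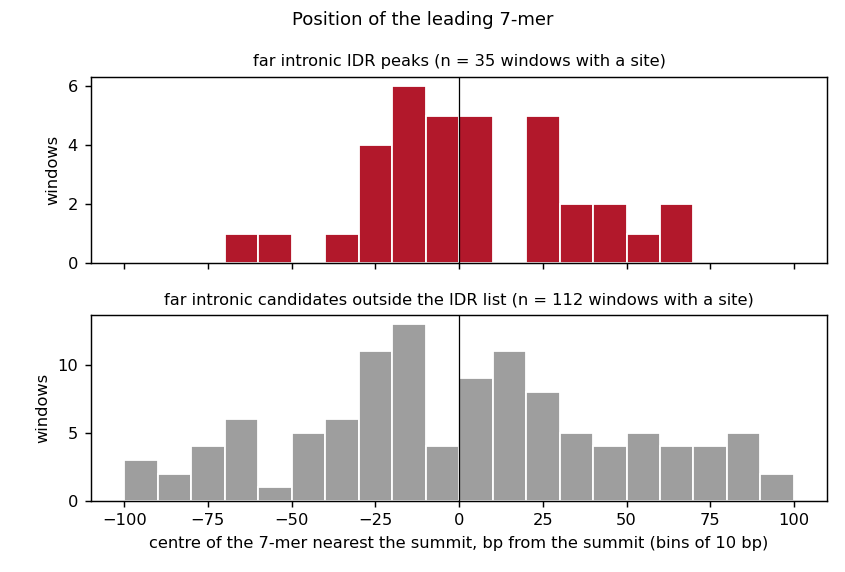
Position of the TACATGG centre nearest the summit, in bp on the plus strand, in bins of 10 bp, for 35 far intronic IDR peaks (upper) and 112 far intronic candidates (lower). In the upper panel no site lies over 69 bp from the summit, and in the lower panel sites reach 97 bp.

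The GC content at the summits was lower than in the flanks and in the candidates, and close to that of the other IDR peaks. The summit windows of the regions had a GC content of 38.6% ± 7.43 (SD over 282 regions), against 40.8% ± 7.95 in their flanks, 40.1% ± 7.35 in the candidates and 38.4% ± 8.50 in the other IDR peaks. The difference from the flanks was -2.19 points, and -1.37 without replicate 1, -0.94 over 10000 bp from a start and -0.63 in windows of 200 bp on either side. Among the strongest far intronic entries of replicates 1, 2 and 3 it was -2.33, -1.14 and -0.934 points. The part of GC content in the 7-mer shares was not tested. The share of soft-masked (repeat) bases was 23.6% in the regions, 23.0% in the candidates and 21.01% in the other IDR peaks. One region, in kek5, had its summit in a transposable element record (0.355%), against 0.939% of the candidates.

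The regions were spread over the large arms, with 53 on 2L, 43 on 2R, 63 on 3L, 74 on 3R and 49 on X. Chromosome 4 had 0 of 282, with 62 of the 4688 candidates there. At the distance limit, the nearest members were in CG31808, corn and nuf, 5021, 5031 and 5044 bp from a start, with signals of 535.6, 201.3 and 316.4. The nearest intronic IDR peaks that missed it were in ush, bun and bmm, 4966, 4939 and 4933 bp from a start, with signals of 760.5, 286.7 and 295.9.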

How the data were processed

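ChIP-seq against CG10431 was measured in 3 biological replicates, treated as 1 group. The authors deposited a candidate list for each replicate and for the pool, each of 30000 entries, and the list that passed IDR, on dm6 per the labels. Aligner and peak caller were not given in the sources used here. Per the labels, chromatin was sonicated to fragments of 200 to 800 bp. The authors' signal has no stated scale and was used only to rank entries within a list. It was checked that the IDR list is the 3314 pooled entries of highest signal, that no entries are identical between replicates, and that all entries fall within the reference arms.

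Starts, genes and exons came from Ensembl release 115 (18277 genes, 23694 distinct starts, transposable element records left out), and sequence from RefSeq's copy of the assembly. The host was the protein-coding gene over the summit, the shortest where several. Windows of 100 bp on either side of the summit were tested for all 8192 7-mers and 22 motifs, of which 3 are themselves 7-mers, by exact McNemar and Fisher tests with Benjamini-Hochberg adjustment over 8211 features (threshold 0.05), and checked on planted sequences. Intervals are exact binomial at 95% and cover counting error over peaks only. Python 3.11.15, NumPy 2.4.6, pandas 2.3.3 and SciPy 1.17.1 were used. Named are the 20 strongest regions, genes with 3 or more, up to 3 per gene list (of the 32 nuclear receptor and ecdysone symbols, 29 were found), and 3 peaks on either side of the distance limit. Regions, gene lists and motifs were chosen with earlier results of these data known. Alternatives were other distances, windows, controls, overlaps and replicates, pairing by replicate, 1 peak per run, the 1657 strongest IDR peaks, and RefSeq's annotation. No read counts were used. The sequences of 2 regions that the same choice would show are not reported here.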

Additional observations from a re-analysis of the deposited data

How the results depend on the processing

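The RefSeq annotation gave the same number of regions, 282. With a limit of 10000 bp the regions were 3.20% of the IDR peaks and 4.48% of far intronic candidates passed, with 2500 bp 15.2% and 6.496%, and among the 1657 strongest IDR peaks they were 7.54%. Without each replicate in turn, counting only IDR peaks found in both of the other replicates, the share ran from 7.65% to 8.82%. The share found in all replicates was 96.8% among the 1657 strongest IDR peaks and 29.8% with the 1657 strongest entries of each replicate, which limits it by construction, and 52.5% to 58.9% otherwise.

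TACATGG exceeded the flanks by 11.0 points, and by 9.13 to 17.0 points under the alternatives. Its call was lost over 10000 bp (17.0 points) and among the 1657 strongest IDR peaks (13.6 points), where fewer windows were tested. The number of features called against flanks was 4, and 0 over 10000 bp, 10 over 2500 bp, 1 among the 1657 strongest IDR peaks, 2 in windows of 200 bp on either side, 5 with the control 500 bp to the left, 2 with the control 1000 bp to the right and 2 to 3 without each replicate. Of the 4, those still called were TACATGG and ATACATG with the control to the left and without each replicate, TACATGG alone in windows of 200 bp on either side and with the control 1000 bp to the right, and ATACATG alone among the 1657 strongest IDR peaks. Against candidates it was 8, and 2, 29 and 2 for the first 3 of these settings, 14 in windows of 200 bp on either side, 13 with 1 peak per run and 3 to 8 without each replicate. Against other IDR peaks it was 1, and 23 over 2500 bp, 25 in windows of 200 bp on either side, 0 in windows of 50 bp on either side, with 1 peak per run or among the 1657 strongest IDR peaks, and 0 without each replicate in turn. The causes of these changes, the number of windows among them, were not tested.

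The GC difference from the flanks was -2.19 points, and -0.94 over 10000 bp, -3.41 in windows of 50 bp on either side, -0.63 in windows of 200 bp on either side and -1.64 to -1.37 without each replicate. The ecdysone share of 7.80% ran from 5.45% to 8.96% under alternatives chosen after seeing the data. With a replicate block, pairing strongest and other entries of each replicate (chosen after seeing the data), the difference in far intronic share stayed at -8.57 points, with an exact permutation p of 0.25 in place of 0.1. No pairing between conditions exists, as the 3 samples form 1 group. Depth is unknown, so a region outside the IDR list is not shown to be unbound, and 3 replicates of 1 line do not show the spread between lines.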

Other observations

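Of the 35 genes that held 2 regions each, several act in pathways already described: N at pooled ranks of 549 and 2390, fz at 410 and 2651, cic at 623 and 2765, nkd at 945 and 978, and kibra at 1925 and 2336 (named after their values were seen). Both regions of N held TACATGG, as did both of Cad86C, at 97 and 1675. In the Antennapedia complex, 2 regions were in CG46458, 1 was in Antp at 2710 and 1 in pb at 893. CG46458 lies within Antp, so that 3 regions are inside Antp, and 13 of the 282 regions are inside more than 1 gene. The nearest start to the stronger CG46458 region, 5487 bp away, was that of Antp. The pb, Antp and stronger CG46458 regions held TACATGG. These are values of single regions, and no comparison was made with them.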
